A study of Mus musculus with 8 samples.

Results

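The annexins are proteins that bind acidic membrane phospholipids in the presence of calcium, and transcript levels of 10 annexin genes were followed in mouse small intestinal organoids after irradiation. The genes were Anxa1, Anxa2, Anxa3, Anxa4, Anxa5, Anxa6, Anxa7, Anxa8, Anxa11 and Anxa13, taken by symbol from 55416 gene IDs present in both deposited tables. Irradiated organoids (IR) had received 6 Gy of X-rays and control organoids (Cont) had not, and each was collected at day 4 and at day 7. Each of the 4 groups held 2 libraries, 8 in all. Every group, controls included, was cultured in IntestiCult medium from intestinal epithelial cells of C57BL/6 mice aged 4 to 8 weeks, that were Tg/Tg for Rosa26-rtTA and also for Col1A1-TetO-OSKM. Together these form an inducible transgene for the reprogramming factors Oct4, Sox2, Klf4 and Myc. The labels do not say that it was switched on, from when the days were counted, or whether the libraries of a group came from separate mice or cultures, so p-values measure only the spread between these samples.

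Each annexin combines a conserved calcium- and lipid-binding core with its own N-terminal tail, through which several members bind S100 proteins and other partners. The family is known for linking membranes to actin, for vesicle traffic and for resealing torn plasma membranes. Anxa1, Anxa2, Anxa3 and Anxa8 are grouped here as regeneration-linked, since from background knowledge they mark fetal-like or repairing epithelium. Anxa4, Anxa5, Anxa6, Anxa7, Anxa11 and Anxa13 form the other group. The grouping was made with earlier results of these data known, so the contrast between the 2 sets is a description and no test.

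All 10 annexins were among the 14063 genes that passed the filter on low counts. Anxa8 passed it only by its counts in irradiated libraries and so had to differ, and its call supports nothing here. At day 4 the transcripts of 8 annexins were called higher in irradiated organoids, 7 of 9 without Anxa8, where 20.0% of all genes tested were called higher and 36.5% in either direction. Those of Anxa4 and Anxa6 did not pass the test. The log2 fold changes at day 4 had a median of 3.79 over the 4 regeneration-linked members, 3.44 without Anxa8, and of 0.57 over the 6 others, against 0.00 over all genes tested. At day 7 the medians were 1.74, 1.72 without Anxa8, and 0.08, against 0.00 over all genes tested. On that day 1 annexin, Anxa2, passed the test, where 4.70% of all genes were called higher and 8.65% in either direction. A gene was called when its p-value from edgeR's quasi-likelihood test, adjusted by the Benjamini-Hochberg method over all genes tested, was under 0.05.

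Proximal promoters were available for 7 of the 10 genes, in the RefSeq table of build GRCm38.p6, and those of Anxa1, Anxa2 and Anxa8 are shown because they are the regeneration-linked members with an entry. The promoter of Anxa10, an annexin outside the 10 with the largest log2 fold change of the annexins at day 4, stands beside them. Each sequence is the 250 bases before the RefSeq start, 5′ to 3′ on the gene's own strand. Capitals mark matches on either strand to GGAATG (the TEAD motif), TGANTCA (the AP-1 motif) and TATAAA (the TATA box).
Anxa1, chr19:20390672-20390921, minus strand: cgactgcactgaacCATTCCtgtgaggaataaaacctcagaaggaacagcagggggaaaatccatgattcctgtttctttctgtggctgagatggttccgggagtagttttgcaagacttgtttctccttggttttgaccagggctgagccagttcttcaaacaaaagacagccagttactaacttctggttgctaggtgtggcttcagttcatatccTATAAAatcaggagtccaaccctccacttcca
Anxa2, chr9:69453433-69453682, plus strand: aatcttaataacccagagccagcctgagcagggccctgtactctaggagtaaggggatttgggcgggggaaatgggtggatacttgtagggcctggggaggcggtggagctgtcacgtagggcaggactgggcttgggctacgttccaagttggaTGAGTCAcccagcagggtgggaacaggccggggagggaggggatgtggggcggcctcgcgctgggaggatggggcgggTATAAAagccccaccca
Anxa8, chr14:34085729-34085978, plus strand: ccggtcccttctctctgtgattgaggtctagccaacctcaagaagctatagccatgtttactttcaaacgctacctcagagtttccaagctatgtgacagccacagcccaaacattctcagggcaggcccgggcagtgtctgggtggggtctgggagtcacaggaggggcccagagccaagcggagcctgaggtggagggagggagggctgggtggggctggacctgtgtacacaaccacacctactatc
Anxa10, chr8:62123194-62123443, minus strand: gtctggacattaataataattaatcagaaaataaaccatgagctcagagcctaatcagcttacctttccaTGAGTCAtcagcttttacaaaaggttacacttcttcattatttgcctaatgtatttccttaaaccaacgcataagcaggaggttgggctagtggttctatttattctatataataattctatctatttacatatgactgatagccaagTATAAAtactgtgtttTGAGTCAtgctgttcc

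Positions count bases from the start, negative before it. In the Anxa1 promoter the TATA box began at -32, and the TEAD motif lay at -236 on the other strand. The Anxa2 promoter held an AP-1 motif at -95, a TATA box at -17 and 3 copies of GGGCGG (the GC box), none of which overlapped the capitals. The Anxa8 promoter held none of these motifs. The Anxa10 promoter held AP-1 motifs at -180 and -16 and a TATA box at -32. Among the other annexins with an entry, Anxa4, Anxa5, Anxa7 and Anxa11, no promoter held a TEAD, AP-1 or TATA match, while those of Anxa7 and Anxa11 held GC boxes. Of 32851 promoters of the same length, 12.6% held the TEAD motif, 6.75% the AP-1 motif, 12.4% the TATA box and 32.7% the GC box. GTTAAT (part of the HNF1 motif) occurred in none of the listed annexin promoters and in 6.43% of all promoters. These matches describe letters only. They are no evidence of binding.

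Levels of different genes were compared in TPM, which are scaled for transcript length and library size. Anxa4 was the most abundant annexin in every library, with 829 and 623 TPM in irradiated and 849 and 1118 TPM in control organoids at day 4. Anxa2 followed with 642 and 493 TPM in irradiated and 311 and 333 TPM in control organoids at day 4. The Anxa4 and Anxa2 values overlapped in irradiated organoids at day 4 and lay apart in the 3 other groups. Anxa13 was the third in mean TPM in every group, at 241 and 230 TPM in irradiated and 173 and 218 TPM in control organoids at day 4.

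The order below these 3 differed between groups. Anxa1 had the fourth highest mean in irradiated organoids at day 4, with 215 and 64.5 TPM, and the ninth of the 10 in control organoids at day 4, with 9.51 and 5.59 TPM. Its irradiated day 4 values overlapped those of Anxa5, Anxa3 and Anxa11, and its control values overlapped those of Anxa3. Anxa11 (92.4 and 68.1 TPM irradiated, 53.6 and 58.9 TPM control) and Anxa5 (115 and 62.5 TPM irradiated, 48.5 and 36.1 TPM control) were intermediate at day 4. So was Anxa7, with 64.5 and 44.3 TPM in irradiated and 39.4 and 42.7 TPM in control organoids at day 4. Anxa6 lay between 6.71 and 12.6 TPM over the 8 libraries. Anxa8 was the lowest member, with 4.57 and 0.87 TPM in irradiated and 0.19 and 0.18 TPM in control organoids at day 4. In the bulk samples fewer cells of a type and less RNA per cell cannot be told apart.

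**Figure D1:**
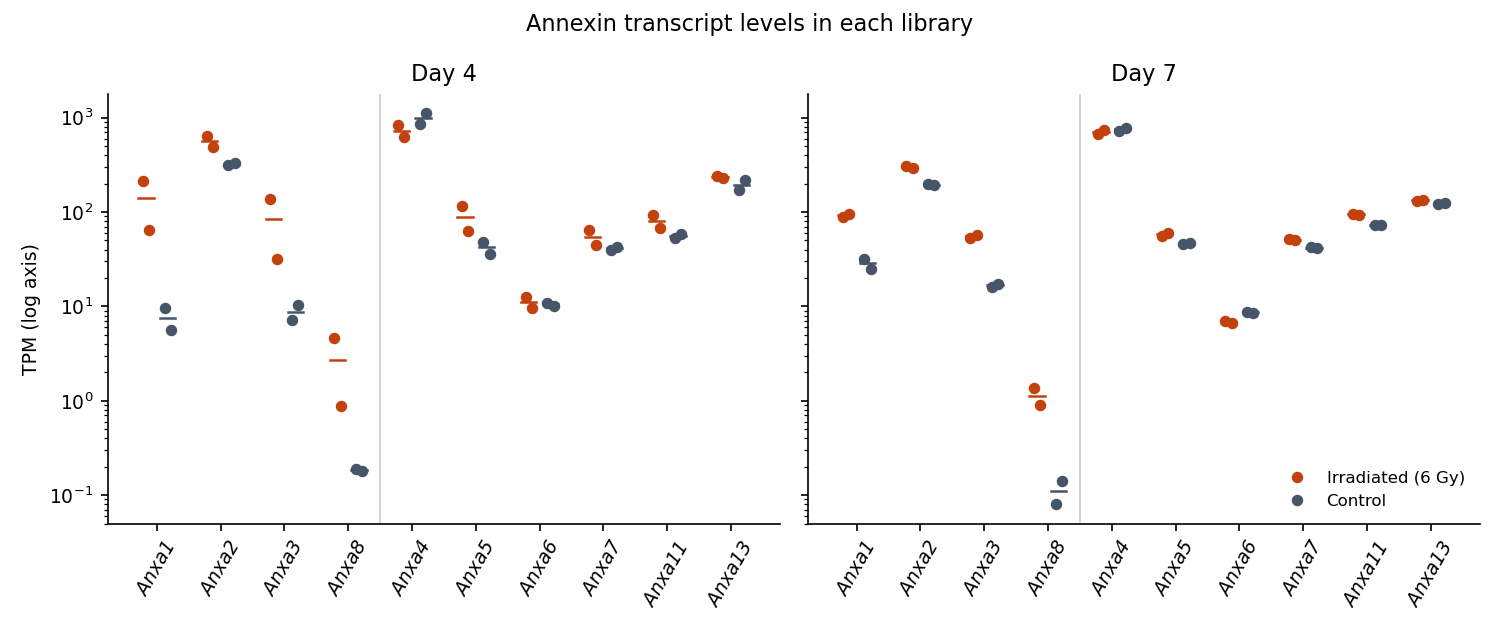
TPM (log axis) of the 10 annexins in each library at day 4 and day 7, irradiated left of control, with regeneration-linked members left of the vertical line; points are libraries and short lines are means of 2. Anxa1, Anxa3 and Anxa8 show the widest gaps between irradiated and control libraries, and at day 4 the irradiated libraries also lie far apart from each other for these genes.

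The make-up of the annexin transcript pool differed with irradiation. The regeneration-linked members supplied 42.5% and 36.3% of the summed TPM of the 10 annexins in irradiated organoids at day 4, against 21.8% and 19.1% in controls. At day 7 their share was 30.9% and 29.0% in irradiated organoids, against 19.5% and 18.0% in controls. Irradiated and control libraries did not overlap on either day. The largest regeneration-linked part was Anxa2, with 27.3% and 30.3% of the pool in irradiated organoids at day 4, against 20.7% and 18.2% in controls. Anxa1 supplied 9.12% and 3.96% of the pool in irradiated organoids at day 4, against 0.633% and 0.305% in controls. Anxa4 supplied 35.2% and 38.3% in irradiated organoids at day 4, against 56.5% and 61.0% in controls. The summed TPM itself was 2354 and 1629 in irradiated and 1503 and 1833 in control organoids at day 4, where the groups overlapped. At day 7 it was 1460 and 1532 in irradiated and 1253 and 1307 in control organoids.

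**Figure D2:**
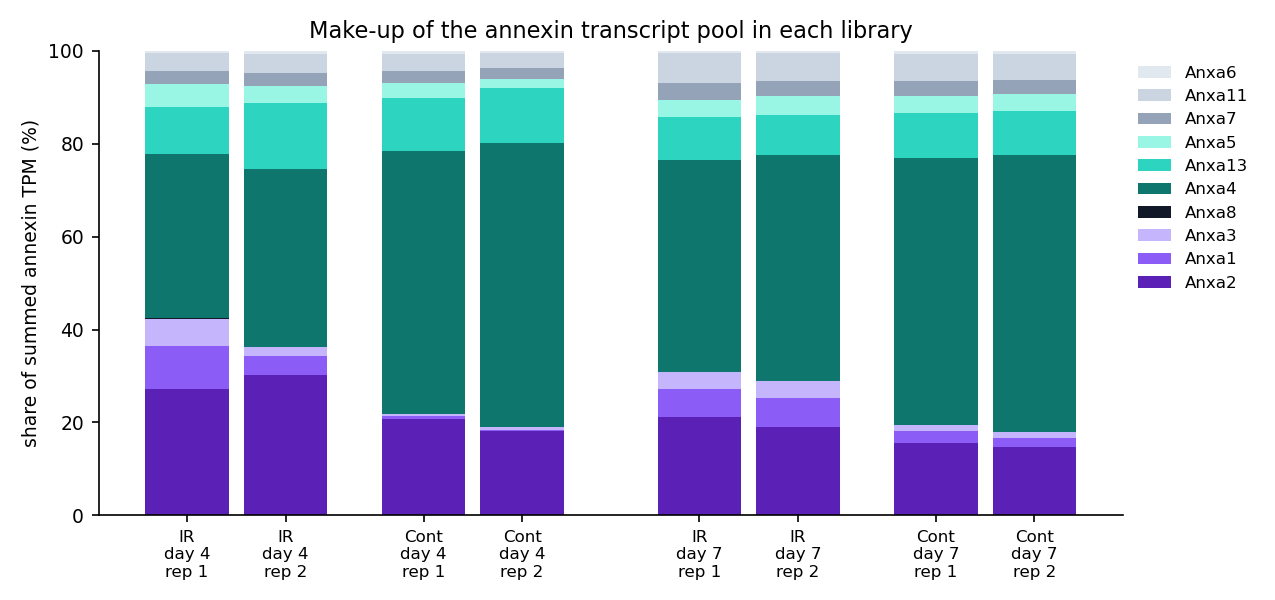
Share (percent) of the summed TPM of 10 annexins contributed by each member in each library, irradiated libraries left of controls within each day. The purple and black part of the bars, made of Anxa2, Anxa1, Anxa3 and Anxa8, reaches 36.3% to 42.5% in irradiated organoids at day 4 and 19.1% to 21.8% in controls.

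At day 4, 8 of the 10 annexins were called higher and none lower, in a comparison in which 20.0% of all genes tested were called higher, 16.5% lower and 36.5% in either direction. At an unadjusted p under 0.05, 1 annexin, Anxa4, was lower. Counts of single genes are given as CPM, counts scaled to library size by the trimmed mean of M-values. Anxa1 encodes a glucocorticoid-regulated protein that signals through formyl peptide receptors and promotes epithelial wound closure. It had 218 and 78.7 CPM in irradiated organoids and 10.1 and 4.57 CPM in control organoids at day 4. Both irradiated libraries lay above both controls, where 65.2% of all genes had no overlap between the groups in either direction at day 4 (33.4% higher, 31.8% lower). The irradiated libraries differed from each other by 2.77 times. The log2 fold change of Anxa1 was 4.38 (SE 0.671, adjusted p = 0.00787 by edgeR). It was 3.46 without irradiated replicate 1 and 4.95 without irradiated replicate 2. Without control replicate 1 it was 4.99. Its call was lost without control replicate 2 (adjusted p = 0.0528) and when the day 4 libraries were fitted alone (adjusted p = 0.0776).

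Anxa3, also called lipocortin III, had 111 and 37.3 CPM in irradiated organoids and 6.65 and 7.01 CPM in control organoids at day 4. The groups did not overlap, and the irradiated libraries again lay far apart, by 2.98 times. Its log2 fold change was 3.44 (SE 0.568, adjusted p = 0.00787 by edgeR). It was 2.43 without irradiated replicate 1 and 4.02 without irradiated replicate 2. Its call was lost without either control library (adjusted p = 0.0551 without replicate 1 and 0.0665 without replicate 2), with the day 4 libraries fitted alone (adjusted p = 0.0624) and with group weights in limma-voom (adjusted p = 0.0527).

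Anxa8, an annexin associated with late endosomes and with squamous and fetal epithelia, was near the limit of these libraries. Its expected counts at day 4 were 60 and 13 in irradiated organoids against 2 and 4 in controls. The ratio of the summed counts, 73 against 6, was 18.5 after scaling for library size, with an exact binomial 95% interval of 8.11 to 52.1 that covers counting error only. In edgeR's fit its log2 fold change was 4.14 (SE 0.791), given as a description because the filter let the gene in by its irradiated counts. The irradiated libraries differed by 4.56 times in CPM, and the log2 fold change was 2.66 without irradiated replicate 1 and 4.85 without irradiated replicate 2.

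Anxa2 encodes the partner of S100a10 in a complex that links actin to the plasma membrane and docks plasminogen and its activator. At day 4 it had 597 and 559 CPM in irradiated organoids and 261 and 279 CPM in control organoids. Its replicates were close together and the groups well apart. Its log2 fold change of 1.10 was the smallest of the regeneration-linked members, with the smallest error of these (SE 0.0805, adjusted p = 9.51e-06 by edgeR).

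Of the 6 other members, 4 were called higher at day 4, where 20.0% of all genes tested were called higher. Anxa5, which binds the phosphatidylserine exposed on dying or torn cells, had 86.7 and 60.2 CPM in irradiated organoids and 31.2 and 26.6 CPM in control organoids. Its log2 fold change of 1.35 (SE 0.162, adjusted p = 2.26e-04 by edgeR) was above that of Anxa2. The regeneration-linked members and the others therefore overlapped in the size of their differences.

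Anxa7, known for promoting membrane fusion, had 119 and 108 CPM in irradiated organoids and 72.3 and 72.7 CPM in control organoids at day 4, a log2 fold change of 0.65 (SE 0.0837). Anxa11, which binds Pdcd6 and takes part in carrying RNA granules on lysosomes, had 169.6 and 157 CPM in irradiated organoids and 99.7 and 100.4 CPM in control organoids at day 4, a log2 fold change of 0.71 (SE 0.0755). Anxa13, a myristoylated member typical of intestinal epithelium and active in apical traffic, had 246 and 296 CPM in irradiated organoids and 179 and 206 CPM in control organoids at day 4, a log2 fold change of 0.49 (SE 0.101). The adjusted p-values by edgeR were 2.69e-04 for Anxa7, 8.61e-05 for Anxa11 and 0.00392 for Anxa13. In none of these 3 did the groups overlap, which held for 65.2% of all genes at day 4 in either direction (33.4% higher). In limma on log2(TPM + 1), a scale on which the median of all genes was -0.17, the calls of Anxa7 (adjusted p = 0.180), Anxa11 (adjusted p = 0.0644) and Anxa13 (adjusted p = 0.219) were lost.

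Anxa4 and Anxa6 were not called at day 4. Anxa4, a protein of the apical and secretory membranes of epithelia, had 833 and 803 CPM in irradiated organoids and 889 and 1087 CPM in control organoids. Irradiated libraries were below controls without overlap, and the log2 fold change was -0.27 (SE 0.102, adjusted p = 0.0602 by edgeR). It passed the threshold under 5 of the alternatives, among them DESeq2 (adjusted p = 0.0432) and no filter on low counts (adjusted p = 0.00490). Anxa6, which carries a duplicated annexin core and takes part in endocytosis and cholesterol handling, had 23.7 and 23.0 CPM in irradiated organoids and 20.96 and 17.98 CPM in control organoids, a log2 fold change of 0.26 (SE 0.130, adjusted p = 0.140 by edgeR).

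**Figure D3:**
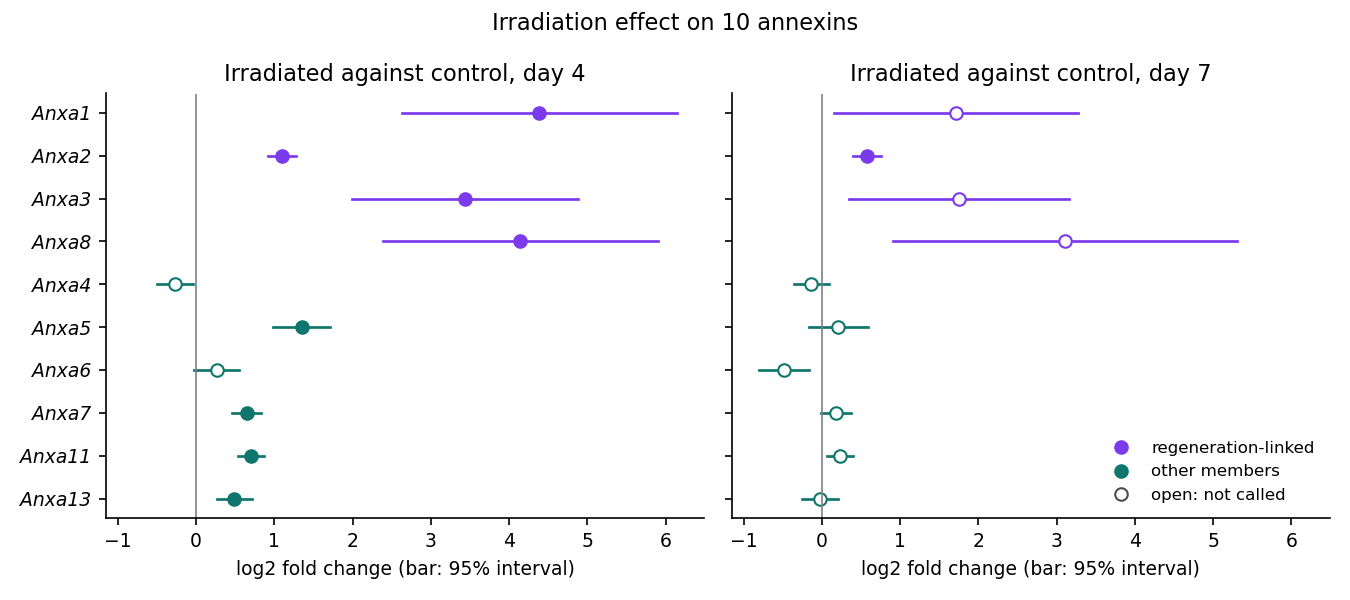
Log2 fold change of irradiated over control organoids for 10 annexins at day 4 and day 7, with 95% intervals from edgeR; filled points passed an adjusted p of 0.05 and open points did not. At day 4 Anxa1, Anxa3 and Anxa8 lie between 3.44 and 4.38 with wide intervals, and the 6 other members lie between -0.27 and 1.35.

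At day 7, 1 of the 10 annexins was called higher and none lower, in a comparison in which 4.70% of all genes tested were called higher, 3.95% lower and 8.65% in either direction. At an unadjusted p under 0.05, 5 annexins were higher and 1, Anxa6, was lower. The 5 include Anxa8, which the filter let in by its irradiated counts, so its p-value supports nothing here. Anxa2 had 266 and 252 CPM in irradiated organoids and 170.8 and 175 CPM in control organoids, a log2 fold change of 0.58 (SE 0.0811, adjusted p = 0.00373 by edgeR). Its call was lost without control replicate 1 (adjusted p = 0.0775), without control replicate 2 (adjusted p = 0.0620) and in limma on log2(TPM + 1) (adjusted p = 0.0774).

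The 3 other regeneration-linked members had larger log2 fold changes at day 7 than Anxa2 but did not pass the test. Anxa1 had 82.9 and 83.7 CPM in irradiated organoids and 25.8 and 24.8 CPM in control organoids, a log2 fold change of 1.72 (SE 0.595, adjusted p = 0.163 by edgeR). Anxa3 had 40.1 and 42.2 CPM in irradiated organoids and 12.7 and 11.8 CPM in control organoids, a log2 fold change of 1.75 (SE 0.553, adjusted p = 0.128 by edgeR). Anxa8 had 16 and 9 counts in irradiated organoids and 1 and 2 in controls, a ratio of 9.29 for 25 against 3 counts (exact binomial 95% interval 2.83 to 48.1) and a log2 fold change of 3.11 (SE 0.987).

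For each of these 3 genes the groups did not overlap, which held in either direction for 65.9% of all genes at day 7 (33.3% higher, 32.6% lower). The spread used in the test was shared over all 8 libraries. The biological coefficient of variation within a group was 0.173 in irradiated and 0.136 in control organoids at day 4, and 0.0409 in irradiated and 0.0470 in control organoids at day 7. When the 4 day 7 libraries were fitted alone, 8 annexins passed the threshold, where 36.3% of all genes passed. They were Anxa1 (adjusted p = 9.16e-19), Anxa3 (adjusted p = 3.08e-15), Anxa8, Anxa2, Anxa7 and Anxa11 in the higher direction, and Anxa4 (adjusted p = 0.00534) and Anxa6 (adjusted p = 0.00579) in the lower. With group weights in limma-voom 7 annexins passed, all of these but Anxa4, where 29.3% of all genes passed. Both counts include Anxa8, which the filter let in by its irradiated counts, so its calls support nothing here. The fit of day 7 alone took its spread from those 4 libraries only. The labels do not say whether they came from separate cultures or mice.

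The 6 other members differed less at day 7. Anxa6 had 11.2 and 10.7 CPM in irradiated organoids and 15.7 and 15.1 CPM in control organoids, a log2 fold change of -0.49 (SE 0.144, adjusted p = 0.0645 by edgeR). Anxa11 had 148 and 145.7 CPM in irradiated organoids and 125.5 and 125.0 CPM in control organoids, a log2 fold change of 0.23 (SE 0.0756, adjusted p = 0.0860 by edgeR). Anxa5 had 36.6 and 38.9 CPM in irradiated organoids and 33.0 and 32.3 CPM in control organoids, a log2 fold change of 0.21 with a 95% interval of -0.16 to 0.58. The log2 fold changes were 0.18 for Anxa7 and -0.13 for Anxa4. Anxa13 was close to level, at 115.0 and 115.5 CPM in irradiated organoids and 117 and 117 CPM in control organoids, a log2 fold change of -0.02 with a 95% interval of -0.25 to 0.21.

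The irradiation effect itself was lower at day 7 than at day 4 for 5 annexins, and higher for none, by the test of the difference between the effects. In that test 5.51% of all genes were called lower, 4.60% higher and 10.1% in either direction. At an unadjusted p under 0.05, 7 annexins had a lower and 0 a higher effect at day 7. The difference in log2 effect was -0.52 for Anxa2, -1.14 for Anxa5, -0.75 for Anxa6, -0.46 for Anxa7 and -0.47 for Anxa11, with adjusted p-values by edgeR of 0.0202, 0.0173, 0.0368, 0.0363 and 0.0222 in that order. The calls of Anxa6, Anxa7 and Anxa11 were lost by DESeq2 (adjusted p = 0.173, 0.125 and 0.0556) and without a filter on low counts (adjusted p = 0.0718, 0.136 and 0.0838), while those of Anxa2 and Anxa5 held in both. Anxa13 stood at -0.51 (adjusted p = 0.0506), and passed with the replicate number as a block (adjusted p = 0.0366) and without a filter (adjusted p = 0.0416). Anxa1 had the largest difference, -2.66, with an SE of 0.887 and an adjusted p of 0.141 by edgeR. It passed by DESeq2 (adjusted p = 0.0397) and without irradiated replicate 2 at day 4 (adjusted p = 0.0166). The value was -1.75 without irradiated replicate 1 at day 4 and -3.28 without control replicate 1 at day 4. None of the 5 calls held without any 1 of the 4 day 7 libraries (adjusted p from 0.0739 to 0.209). Those of Anxa5, Anxa6 and Anxa7 were also lost without control replicate 2 at day 4, and that of Anxa7 without control replicate 1 at day 4 (adjusted p from 0.0512 to 0.0837). None held in limma on log2(TPM + 1), where the differences of these 5 lay between -0.68 and -0.09 and the median of all genes at 0.26.

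Day 7 was also set against day 4 within each treatment. In irradiated organoids 5 annexins were lower at day 7 and none higher, in a comparison in which 18.3% of all genes were called lower, 14.7% higher and 33.0% in either direction. At an unadjusted p under 0.05, 6 were lower and 0 higher. The log2 fold changes were -1.16 for Anxa2, -0.96 for Anxa5, -1.09 for Anxa6, -0.51 for Anxa7 and -1.23 for Anxa13, and the largest of the adjusted p-values by edgeR was 0.00218, for Anxa5. Anxa13 fell to 115.0 and 115.5 CPM at day 7, against 246 and 296 CPM at day 4. Those of Anxa5 and Anxa7 were not called in limma on log2(TPM + 1), where Anxa7 stood at -0.07 and the median of all genes at 0.30. Anxa1 (log2 fold change -0.83, adjusted p = 0.312) and Anxa3 (log2 fold change -0.85, adjusted p = 0.250) did not pass, and their day 7 values lay between the 2 day 4 values of irradiated organoids.

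In control organoids 2 annexins were lower at day 7 and none higher, where 1.46% of all genes were called lower, 1.25% higher and 2.72% in either direction. At an unadjusted p under 0.05, 4 annexins were lower and 2 higher. Anxa2 fell to 170.8 and 175 CPM at day 7, against 261 and 279 CPM at day 4 (log2 fold change -0.64, adjusted p = 0.00484 by edgeR). Anxa13 fell to 117 and 117 CPM at day 7, against 179 and 206 CPM at day 4 (log2 fold change -0.72, adjusted p = 0.00761 by edgeR). Both calls were lost without either day 7 control library (adjusted p from 0.0954 to 0.136) and in limma on log2(TPM + 1). Anxa1 had 25.8 and 24.8 CPM in controls at day 7 and 10.1 and 4.57 CPM at day 4, a log2 fold change of 1.83 that did not pass (SE 0.697, adjusted p = 0.278 by edgeR). The fold change of Anxa1 at day 7 is thus taken against higher control values than that at day 4.

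The other pathway genes were read from lists of annexin partners, plasminogen activation and membrane repair, in the same fits. Of the 8 tested annexin partners 7 were called higher at day 4 and none lower, against 20.0% of all genes higher and 16.5% lower. S100a10, the Anxa2 partner, had 177 and 218 CPM in irradiated organoids and 119.6 and 119 CPM in control organoids (log2 fold change 0.73, adjusted p = 4.23e-04 by edgeR). S100a11, which binds Anxa1, had 254 and 145 CPM in irradiated organoids and 34.7 and 31.2 CPM in control organoids (log2 fold change 2.60, adjusted p = 5.76e-04 by edgeR). S100a6, which binds Anxa2 and Anxa11, had 113 and 53.5 CPM in irradiated organoids and 5.62 and 8.72 CPM in control organoids (log2 fold change 3.51, adjusted p = 0.00182 by edgeR).

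The large scaffold gene Ahnak, whose protein binds the Anxa2 complex, rose by 1.27 on the log2 scale, and Pdcd6, encoding the calcium sensor that binds Anxa7 and Anxa11, by 0.77. Pla2g4a, encoding a cytosolic phospholipase, rose by 0.64 and S100a1 by 0.54. Sri, encoding the Anxa7 partner sorcin, was at 0.09 and did not pass. The formyl peptide receptor genes through which Anxa1 signals were at the floor of the libraries. Fpr1 and Fpr3 had no count in any library and Fpr2 had 0.0852 CPM in 1 control library and none in the 7 others. At day 7, 3 partners were called higher, against 4.70% of all genes, S100a11 (log2 fold change 1.28), S100a6 (2.08) and Pdcd6 (0.35). None of these 3 calls held without any 1 of the day 7 libraries, and 7 partners were called higher with the day 7 libraries fitted alone, where 36.3% of all genes were called in either direction.

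Among 7 tested genes of the plasminogen system, 3 were called higher and 1 lower at day 4, against 20.0% of all genes higher and 16.5% lower. Plau, 1 of the 3, passed the filter on low counts only by its irradiated libraries, and its call supports nothing here. Plat, the tissue plasminogen activator that the Anxa2 complex docks, had 48.3 and 29.2 CPM in irradiated organoids and 4.86 and 2.19 CPM in control organoids (log2 fold change 3.51, adjusted p = 3.44e-04 by edgeR). Plau, the urokinase, had 2.69 and 1.31 CPM in irradiated organoids and 0.341 and 0 CPM in control organoids, and its receptor gene Plaur had 9.57 and 4.79 CPM in irradiated organoids and 1.87 and 3.29 CPM in control organoids (log2 fold change 1.44). Plgrkt, a membrane receptor for plasminogen, was lower, with 69.4 and 78.4 CPM in irradiated organoids and 94.2 and 113 CPM in control organoids (log2 fold change -0.49, adjusted p = 0.00608 by edgeR). Plg, encoding plasminogen itself, had at most 0.109 CPM. At day 7 Plat (log2 fold change 2.15, adjusted p = 0.0202) and Plaur (log2 fold change 1.45, adjusted p = 0.0424) were called higher by edgeR, against 4.70% of all genes, both calls being lost without any 1 of the day 7 libraries. Without irradiated replicate 1 at day 4, 1 gene of this list was called higher on that day.

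**Figure D4:**
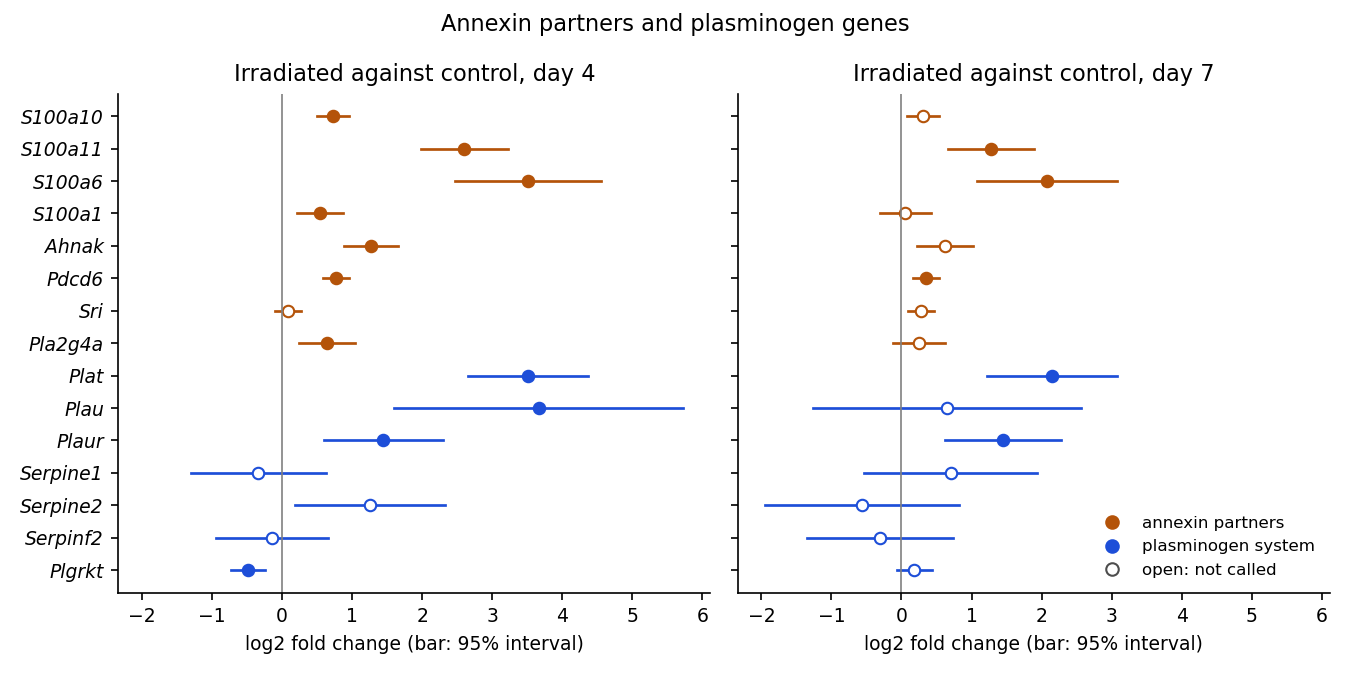
Log2 fold change of irradiated over control organoids for the tested annexin partners and plasminogen genes at day 4 and day 7, with 95% intervals from edgeR; filled points passed an adjusted p of 0.05. S100a11, S100a6, Plat and Plau lie between 2.60 and 3.66 at day 4, and Plgrkt lies below 0. Plau passed the filter on low counts only by its irradiated libraries.

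Of 17 tested membrane repair genes, 12 were called higher at day 4 and none lower, against 20.0% of all genes higher and 16.5% lower, with a median log2 fold change of 0.44 against 0.00 over all genes. Ehd2, 1 of the 17, passed the filter on low counts only by its irradiated libraries, so its result supports nothing here. Capn2, a calpain protease, had 55.9 and 30.4 CPM in irradiated organoids and 9.63 and 8.84 CPM in control organoids (log2 fold change 2.23). Tsg101 and Chmp4c, components of the ESCRT machinery that pinches off damaged membrane, rose by 0.53 and 0.44, and Capn1 by 0.52. Myof, a ferlin related to dysferlin, rose by 2.56, while Dysf itself had at most 0.108 CPM. On the log2(TPM + 1) scale 2 genes of this list were called higher at day 4. At day 7 the calls numbered 2, against 4.70% of all genes called higher, Capn1 (0.45) and Capns1 (0.53), with 0 without any 1 of the day 7 libraries. With those libraries fitted alone 7 were called higher, in a fit in which 36.3% of all genes were called in either direction.

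Genes whose levels followed an annexin most closely were found by the root mean square difference of log2 CPM, each gene centred on its mean over the 8 libraries, among 10488 genes of at least 5 CPM on average. Closest to Anxa1 was Clu, encoding the secreted chaperone clusterin and a marker of revival stem cells, at 0.261. Clu had 184 and 82.7 CPM in irradiated and 11.1 and 3.66 CPM in control organoids at day 4, and 114 and 113 CPM in irradiated and 28.1 and 29.8 CPM in control organoids at day 7. Vsig1 (0.419), Dpysl3 (0.430), Il1rn (0.503) and Msln (0.516) came next. Anxa3 stood at 0.536 from Anxa1, Anxa10 at 0.826 and Anxa8 at 0.883.

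Closest to Anxa2 were Cldn2, a tight junction claudin of crypts, at 0.113, Sult1d1, Dglucy, Zmat3 and Slc9a2, all within 0.146. Closest to Anxa13 were S100a1 at 0.115, Pqlc3, Hkdc1, Pdzd3 and Polk, all within 0.132. These distances describe 8 libraries in 4 groups and share the library scaling.

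**Figure D5:**
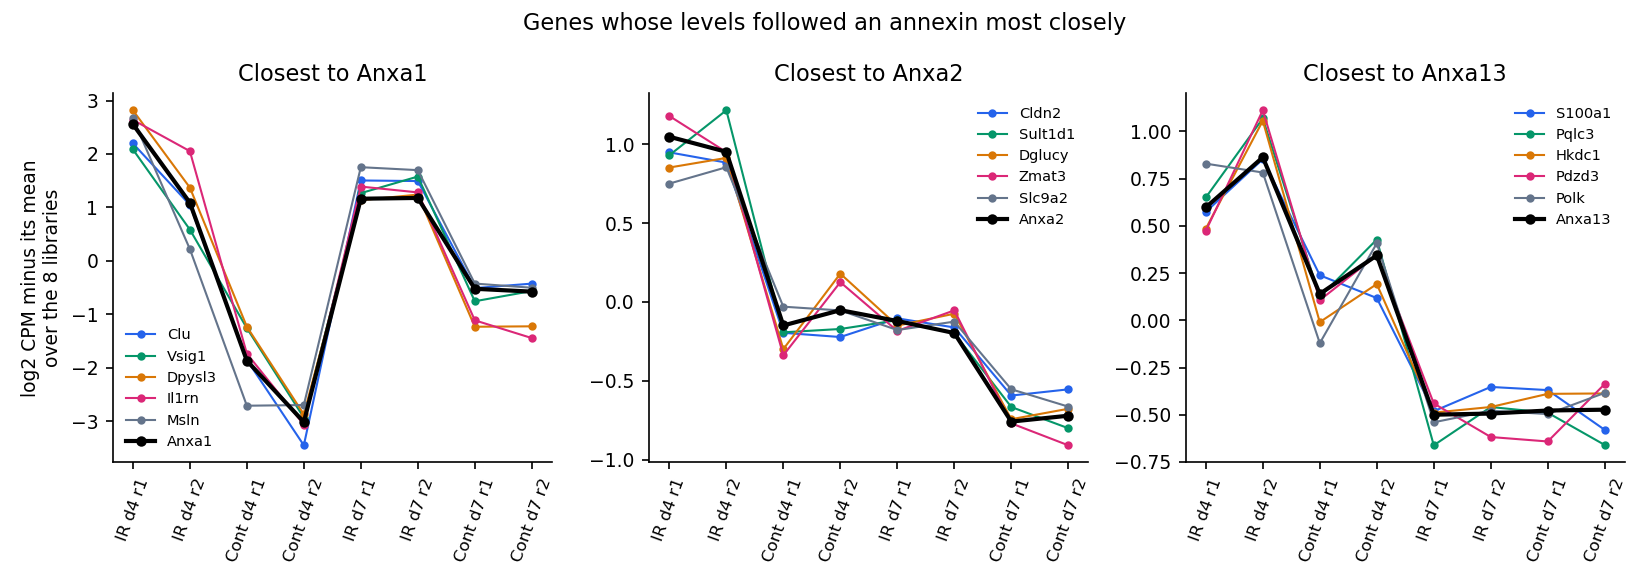
Log2 CPM, centred on each gene's mean over 8 libraries, of Anxa1, Anxa2 and Anxa13 (black) and of the 5 genes closest to each, with IR left of Cont at each day (d) and r for replicate. The Anxa1 group is high in irradiated organoids on both days, the Anxa2 group peaks in irradiated organoids at day 4, and the Anxa13 group is higher at day 4 than at day 7 in both treatments.

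Both annexins outside the list were measured too. Anxa10, a gastric member that is low in normal intestine, had 179 and 69.5 CPM in irradiated organoids and 2.30 and 1.04 CPM in control organoids at day 4 (log2 fold change 6.28, adjusted p = 0.00233 by edgeR). Without irradiated replicate 1 the log2 fold change was 5.44. At day 7 it had 81.4 and 87.0 CPM in irradiated organoids and 10.8 and 8.83 CPM in control organoids (log2 fold change 3.10, adjusted p = 0.0396 by edgeR). The day 4 call was lost with group weights in limma-voom (adjusted p = 0.0570), and the day 7 call without any 1 of the day 7 libraries or either day 4 control library (adjusted p from 0.0662 to 0.223), without a filter, in limma-voom and on log2(TPM + 0.1). Anxa9 lay between 0.341 and 1.52 CPM and was not called.

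The 8 epithelial markers were detected in every library. They summed to 5721 to 6875 CPM in irradiated and 3960 to 3969 CPM in control organoids at day 4. Of the 8, 4 were called higher and 2 lower, against 20.0% of all genes higher and 16.5% lower. Epcam itself had 744 and 678 CPM in irradiated and 1059 and 1024 CPM in control organoids at day 4, while Krt8 had 2198 and 1626 CPM in irradiated and 841 and 848 CPM in control organoids. The summed level of the 22 enterocyte markers was 23268 to 36519 CPM in irradiated and 6074 to 6725 CPM in control organoids at day 4, and 9779 to 9830 CPM in irradiated and 5931 to 6002 CPM in control organoids at day 7. All 22 were called higher at day 4, and so were 19 of 21 fetal-like genes (10 on the log2(TPM + 1) scale) and 9 of 10 Paneth markers, against 20.0% of all genes. Of 9 tested goblet markers 5 were called higher and 2 lower at day 4, and their list summed to 1966 to 2309 CPM in irradiated and 1980 to 2327 CPM in control organoids. The part of these cell types in the annexin differences was not tested. Mesenchymal markers summed to 20.5 to 23.3 CPM in irradiated and 17.2 to 17.6 CPM in control organoids at day 4, with none of the 3 tested called and Thy1 at 0. Immune markers summed to 11.2 to 13.2 CPM in irradiated and 4.52 to 6.22 CPM in control organoids at day 4, with 3 of 4 tested called higher and Adgre1 and Fcgr3 at 0. Endothelial markers summed to 3.12 to 5.77 CPM in irradiated and 1.52 to 1.62 CPM in control organoids at day 4, with 1 of 2 tested called higher and Cdh5 and Kdr at 0. Neuronal and glial markers summed to 36.3 to 40.4 CPM in irradiated and 11.3 to 16.3 CPM in control organoids at day 4, most of it Ret, with 2 of 4 tested called higher.

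Library totals ran between 7541764 and 16054269 expected counts. The mitochondrial share was highest in irradiated replicate 2 at day 4, at 27.6%, against 12.9% to 20.7% elsewhere, and that library had the lower Anxa1, Anxa3 and Anxa8 values of its pair. Its part in that gap was not tested.

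Some limits concern single members. The deposited count divided by the TPM follows the transcript length used, and was compared with 10889 genes well covered in every library. Across libraries this ratio varied by 1.65 times for Anxa8, wider than for all but 4.81% of those genes. Anxa8 itself was not well covered, and its outlying library, control replicate 1 at day 4, held 2 counts. The ratio varied by 1.27 times for Anxa1 and by 1.28 times for Anxa3, against a median of 1.14 times over those genes. Anxa13 is annotated in GENCODE M21 as a processed transcript with a reference genome error tag. Genes that overlap the listed annexins in that annotation had at most 20.9 counts in a library, a value of Gm16144, antisense to Anxa2.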

How the data were processed

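RNA was measured by poly-A RNA sequencing with a stranded kit, per the labels' protocols, in 4 groups of 2 libraries. The authors deposited 1 table of expected counts and 1 of TPM per gene. The tools were RSEM 1.3.3, STAR 2.7.3a, Trim Galore and FastQC, and GRCm39 and mm10 are named without roles, per the submitters' processing notes. Strand setting and annotation release: not given in the sources used here. Antisense reads may therefore be mixed in.

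Symbols came from GENCODE M21 (52083 of 55416 IDs matched) and promoters from RefSeq, GRCm38.p6. Expected counts were rounded, which changed 11.4% of values. The edgeR 4.0.16 fit (R 4.3.3) used filterByExpr (minimum count 10, minimum total 15), TMM scaling and a robust quasi-likelihood F-test of 4 group means over 8 libraries with 4 residual degrees of freedom. It gave 5 two-sided comparisons with Benjamini-Hochberg adjustment over 14063 genes. The SE was the log2 fold change over the root of F. One count stood for 0.0610 to 0.120 CPM, and intervals on counts cover counting error only. Within every group the libraries differed beyond sampling noise.

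Named genes are the 10 annexins, Anxa9 and Anxa10, up to 4 genes per list with the smallest day 4 p-values, and the 5 closest to Anxa1, Anxa2 and Anxa13. Other genes of the partner, plasminogen and membrane repair lists were named after their values were seen. The members, lists and motifs were chosen with earlier results of these data known, and the day 4 rise of Anxa1 was among those results.

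Alternatives were DESeq2 size factors, no filter, a filter of 5 CPM in 2 libraries, DESeq2 1.42.0, limma 3.58.1 (voom, voom with group weights, and log2 TPM with a pseudocount of 1 or 0.1 for genes of at least 1 TPM in 2 libraries), only the groups compared, a replicate block, no mitochondrial genes, and leaving out each library. Tests were checked on simulated data with the same spread in all groups. The groups here differed in spread, so that check does not cover the effect of unequal spread. Same-numbered libraries of different groups did not deviate together (correlations from -0.0355 to 0.0581), so the numbers were not taken to pair samples.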

Additional observations from a re-analysis of the deposited data

Results flagged for a closer look

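The effect of irradiation differed between the days for 5 annexins in edgeR's test of the difference itself, with 2 libraries a group. The irradiation effect at day 7 less that at day 4 was -0.52 on the log2 scale for Anxa2, -1.14 for Anxa5, -0.75 for Anxa6, -0.46 for Anxa7 and -0.47 for Anxa11. The log2 effects at day 7 and day 4 were 0.58 and 1.10 for Anxa2, 0.21 and 1.35 for Anxa5, and -0.49 and 0.26 for Anxa6. They were 0.18 and 0.65 for Anxa7, and 0.23 and 0.71 for Anxa11. All 5 calls were lost without any 1 of the day 7 libraries and in limma on both TPM scales. Those of Anxa6, Anxa7 and Anxa11 were also lost by DESeq2 and without a filter on low counts.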

How the results depend on the processing

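No annexin result that passed the threshold changed sign under any alternative run. The annexin counts below include Anxa8 where it was called. In the filtered fits that held Anxa8 its irradiated counts let it in, so its calls there support nothing. At day 4, 8 annexins of 5130 genes were called. The counts were 5 of 2836 on log2(TPM + 1), 5 of 2783 on log2(TPM + 0.1), and 3228 genes with only the day 4 groups fitted. Leaving out 1 library gave 6 to 9 annexins and 3842 to 5101 genes. At day 7, 1 annexin of 1216 genes was called. The counts were 2 of 2044 without a filter, 2 with the stricter filter, 2 by DESeq2, 7 of 4120 with group weights and 8 of 4732 with only the day 7 groups. They were 0 of 387 on log2(TPM + 1) and 0 of 389 on log2(TPM + 0.1) in limma, where 3 and 4 annexins had an unadjusted p under 0.05. Leaving out 1 library gave 0 to 6 annexins and 105 to 2341 genes.

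For the difference between the days, 5 annexins of 1422 genes were called, against 3 of 2456 without a filter (Anxa2, Anxa5 and Anxa13), 3 by DESeq2 (Anxa1, Anxa2 and Anxa5), 0 of 308 on log2(TPM + 1), 0 of 338 on log2(TPM + 0.1), and 0 to 7 of 244 to 2718 without 1 library. For day 7 against day 4 in irradiated organoids, 5 of 4639 were called, against 3 on both TPM scales and 5 to 8 of 2094 to 5252 without 1 library. In controls, 2 of 382 were called. The counts there were 1217 genes without a filter, 4 annexins of 858 genes with group weights, 4 of 620 with only the groups compared, 0 of 58 on log2(TPM + 1), 0 of 55 on log2(TPM + 0.1), and 0 to 6 of 17 to 1234 without 1 library. Of the annexins with 0 calls on a TPM scale, 1 had an unadjusted p under 0.05 for the difference between the days and 3 for time in controls, on either scale. The cause of these differences in counts was not tested.

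With the replicate number as a block, 5153 genes and 8 annexins were called at day 4, 1245 and 1 at day 7, and 1443 and 6 for the difference between the days. Annexin calls numbered 5 and 2 for time in irradiated and control organoids. Depth limits Anxa8, at 1 to 4 counts in control libraries.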
